A study of Homo sapiens with 41 samples.

Results

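Elongin A occupancy was examined at 7 genes of abundant long noncoding RNAs (lncRNAs): NEAT1, MALAT1, KCNQ1OT1, TUG1, OIP5-AS1, MIR17HG and MIR22HG. The genes were chosen by name and located on hg19 in GENCODE, which annotates 18702 lncRNA genes in all. Every Elongin A peak that overlapped 1 of the genes or the 1 kb on either side of it by at least 1 bp was taken as a peak of that gene. TUG1 is annotated as protein-coding and the other members as lncRNA genes. The abundance of the RNAs and their place in the cell were not measured in the peak lists.

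The cells were DLD1, a human colon cancer line, wild type and given no siRNA. Occupancy was mapped by CUT&RUN, in which DNA cut loose by an antibody-guided nuclease is sequenced, on formaldehyde-fixed cells, and by ChIP-seq. Of the 41 samples of the study 7 bear on the peaks, namely 2 goat antibody CUT&RUN samples and a goat IgG control, 1 mouse antibody CUT&RUN sample and a mouse IgG control, and 1 ChIP-seq sample and its input. The 3 lists held 8720, 2338 and 186 peaks in this order, and each peak had a fold enrichment (the pileup relative to the local background estimated from the control) and a -log10 q-value. No list held a value per replicate or a read total, so the values below have no replicate error, the depth is unknown, and a gene without a peak is one where no enrichment passed the threshold. Neither assay reads the strand, so a peak cannot be assigned to a gene rather than to its antisense or divergent neighbor. Among 12 colon epithelium marker genes, 8 had a goat antibody peak. In that list 1 of 4 leukocyte, 0 of 3 fibroblast and 1 of 2 located endothelium marker genes had one. In the mouse antibody list the counts were 4, 1, 0 and 1 in the same order. No share over all genes was computed beside these counts, so they do not establish the identity of the cells.

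Elongin A is the transcriptionally active subunit of the Elongin complex, which stimulates elongation by RNA polymerase II (RNAPII) in vitro. NEAT1 RNA is the scaffold of paraspeckles and is made as a short polyadenylated and a long form from the same promoter, and MALAT1 RNA collects in nuclear speckles and is cut at its 3′ end by the tRNA-processing enzyme RNase P. KCNQ1OT1 is an imprinted RNA read antisense to KCNQ1, TUG1 and OIP5-AS1 are broadly expressed lncRNAs, and MIR17HG and MIR22HG are the host genes of the miR-17-92 cluster and of miR-22.

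The sequences at which summits of different lists came closest are given first. Other peaks at these genes were also shared between lists, with summits further apart. Each is the hg19 sequence in the direction of the gene, and the capitals run from the first to the last summit of the lists named, with 20 bp on either side in lower case.
MALAT1 first peak, goat and mouse, chr11:65265422-65265524, plus strand: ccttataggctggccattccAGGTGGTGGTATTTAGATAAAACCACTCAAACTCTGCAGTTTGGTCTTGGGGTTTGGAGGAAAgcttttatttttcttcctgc
MALAT1 second goat peak with the first ChIP-seq peak, chr11:65266685-65266797, plus strand: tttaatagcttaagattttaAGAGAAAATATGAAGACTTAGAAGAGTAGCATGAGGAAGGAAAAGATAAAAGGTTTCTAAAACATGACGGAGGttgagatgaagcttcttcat
MALAT1 mouse, goat and ChIP-seq, chr11:65267661-65267952, plus strand: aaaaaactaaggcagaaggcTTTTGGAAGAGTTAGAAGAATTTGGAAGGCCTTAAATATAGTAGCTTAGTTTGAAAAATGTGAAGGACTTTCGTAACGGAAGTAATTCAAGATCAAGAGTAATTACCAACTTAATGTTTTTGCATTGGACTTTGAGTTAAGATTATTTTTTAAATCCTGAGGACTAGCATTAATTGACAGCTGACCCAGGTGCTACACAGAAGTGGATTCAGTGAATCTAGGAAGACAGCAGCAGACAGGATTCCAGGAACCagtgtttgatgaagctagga
MALAT1 last peak, goat and mouse, chr11:65274562-65274638, plus strand: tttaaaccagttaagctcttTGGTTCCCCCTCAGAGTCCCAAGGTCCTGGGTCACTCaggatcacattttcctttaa
NEAT1 last peak, goat and mouse, chr11:65194674-65194880, plus strand: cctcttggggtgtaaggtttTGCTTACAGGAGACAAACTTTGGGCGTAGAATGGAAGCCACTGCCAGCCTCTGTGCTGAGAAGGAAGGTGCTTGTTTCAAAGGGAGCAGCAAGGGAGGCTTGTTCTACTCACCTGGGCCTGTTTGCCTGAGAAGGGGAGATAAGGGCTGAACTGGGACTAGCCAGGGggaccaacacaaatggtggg
MIR17HG first peak, goat and mouse, chr13:92001490-92001532, plus strand: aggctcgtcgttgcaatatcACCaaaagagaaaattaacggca
These 6 stretches had a GC content of 31.9% to 54.1%, and none held more than 3 CpG dinucleotides. The 32 bp centered on the summit of each of the 27 peaks at the 7 genes occurred once in the GRCh37 assembly on both strands together, so each summit word had a single genomic position.

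Peaks were found at NEAT1, MALAT1, MIR17HG and MIR22HG, and none in any list at KCNQ1OT1, TUG1 or OIP5-AS1. In the goat antibody list 4 of the 7 genes had a peak, where 11.1% of the 10146 lncRNA genes of 5 kb or more did. The mouse antibody list had a peak at 4 of 7 genes, against 4.14% of those lncRNA genes, and they were the 4 genes of the goat antibody list, a combination seen at 2.41% of lncRNA genes. In the ChIP-seq list MALAT1 was the 1 gene of 7 with a peak, against 0.276%. MALAT1 was thereby 1 of 9 lncRNA genes of this length (0.0887%) with a peak in all 3 lists, and TALAM1, the gene on its other strand, was another. TUG1 does not enter these background shares. A minimum fold enrichment of 5 left NEAT1 and MALAT1 in each CUT&RUN list and no gene in the ChIP-seq list. The share of lncRNA genes left by that limit was not computed.

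The 4 genes held 16 goat antibody peaks, 9 mouse antibody peaks and 2 ChIP-seq peaks. The goat antibody peaks had fold enrichments between 2.96 and 6.89 and a median of 4.71, where all peaks of the list had 4.32. The mouse antibody peaks had fold enrichments between 3.48 and 6.26 and a median of 4.40, where the list had 4.36. The median over the genes was thus close to that of each CUT&RUN list, but the genes differed. In the goat antibody list the median was 5.89 at MALAT1, 5.21 at NEAT1, 4.65 at MIR17HG and 3.82 at MIR22HG. The 2 ChIP-seq peaks had a median of 4.12, well below the 9.99 of that list. The peaks at the genes had a median width of 476 bp in the goat antibody list and 402 bp in the mouse antibody list, beside 362 and 295 bp over all peaks.

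**Figure D1:**
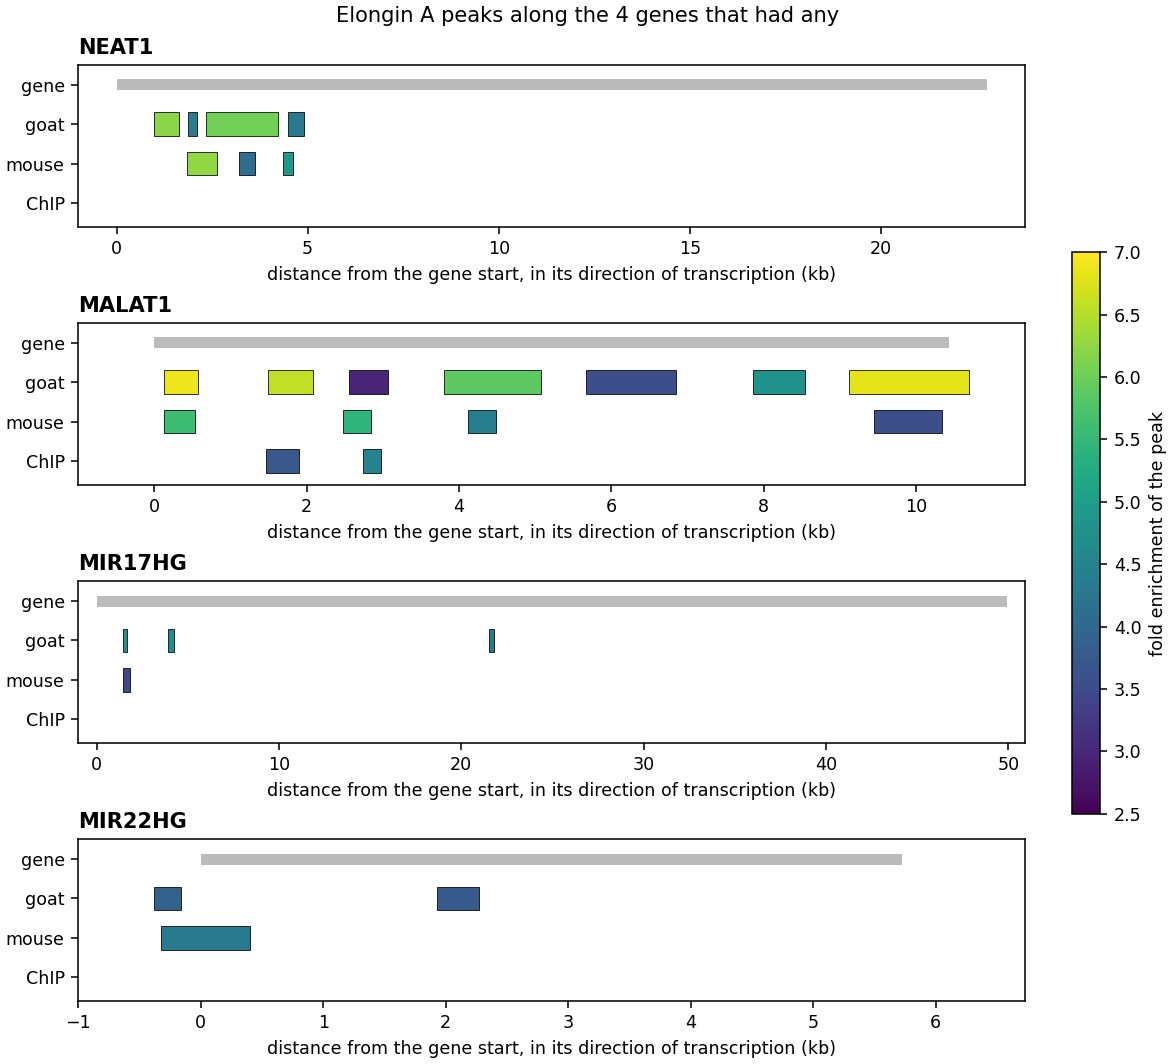
Positions of Elongin A peaks along NEAT1, MALAT1, MIR17HG and MIR22HG, with the distance from the annotated gene start in kb on the horizontal axis and 1 row for each peak list under the gray bar of the gene. Color gives the fold enrichment. Goat antibody peaks spread over the whole of MALAT1, whereas the NEAT1 peaks of both CUT&RUN lists ended within 4909 bp of the gene start.

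At a gene end, a peak was counted when it overlapped the 1 kb before or after the annotated end. In the goat antibody list NEAT1, MALAT1 and MIR22HG had a 5′ end peak, 3 of 7 genes against 3.35% of lncRNA genes of 5 kb or more. In the mouse antibody list MALAT1 and MIR22HG did, 2 of 7 against 1.13%, and in the ChIP-seq list 0 of 7 did against 0.128%. A 3′ end peak was found at MALAT1 alone, 1 of 7 genes in the goat antibody list against 0.788% and 1 of 7 in the mouse antibody list against 0.266%. The ChIP-seq list had a 3′ end peak at 0 of 7, against 0.0296%. When the start of any annotated transcript was used, 4, 4 and 1 genes had a 5′ end peak in the goat antibody, mouse antibody and ChIP-seq lists. When the end of any annotated transcript was used, 3, 2 and 1 genes had a 3′ end peak in the goat antibody, mouse antibody and ChIP-seq lists. No share over all lncRNA genes was computed for either of these wider rules. Each further transcript can add to the stretch searched, so the shares above do not apply to these counts. MALAT1 was the member with goat antibody peaks at both ends of the gene, as 1 of 8 lncRNA genes of 5 kb or more (0.0788%). TALAM1, which lies over the same bases on the other strand, was another of the 8. With a window of 1000 bp upstream to 100 bp downstream of the annotated gene start, MIR22HG was the 1 gene with a peak in each CUT&RUN list, and the 5′ end peaks of NEAT1 and MALAT1 began further inside the gene. The annotated start of MIR22HG is set by 1 long transcript, and no peak touched the RefSeq promoter of that gene.

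MALAT1 (ENSG00000251562, chr11:65265111-65275544, plus strand, 10.4 kb) was the most broadly covered of the genes. In the goat antibody list it held 7 peaks covering 57.4% of its bases, in the mouse antibody list 4 peaks covering 19.4%, and in the ChIP-seq list 2 peaks covering 6.38%. The goat antibody peaks left gaps of 472 to 1012 bp between them, so that each of 10 equal segments of the gene was covered in part, from 35.4% of segment 4 to all of segment 10. Among the 10145 other lncRNA genes of 5 kb or more, 2 had a higher covered share in the goat antibody list, the snoRNA host gene GAS5 with 70.0% and TALAM1 with 58.2%, which lies on the same bases. In the mouse antibody list 0 had a higher share, and GAS5 was next with 17.4%. GAS5 was named after its values were seen. The covered share of MALAT1 depended on the threshold, and with a fold enrichment of at least 5 it was 34.7% in the goat and 7.29% in the mouse antibody list.

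Within MALAT1, fold enrichment was highest at the first and the last peak in the goat antibody list. The first goat antibody peak, chr11:65265237-65265679, had a fold enrichment of 6.89 and a -log10 q-value of 18.3. The next 5 peaks had fold enrichments of 6.57, 2.96, 5.89, 3.58 and 4.77 in the order of the gene. The last, chr11:65274234-65275814, had a fold enrichment of 6.82 and the highest -log10 q-value of the gene, 19.7. These peaks at the ends of the gene ranked 561 and 587 among the 8720 peaks of the list by fold enrichment. In the mouse antibody list the order differed: fold enrichment was 5.59 at the first peak, then 5.42 and 4.40, and 3.58 at the last peak, which ranked 1936 of 2338. The place of the last peak was thus found by both antibodies and its rank was not.

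The first MALAT1 peak began 126 bp after the gene start and touched the RefSeq promoter by its last 22 bases in the goat antibody list and 21 in the mouse antibody list. RefSeq gives MALAT1 a pair of start sites, and the promoter sequence of the upstream one, from 250 bases before to 50 after the start, is shown for the small part of it under a peak, in capitals.
MALAT1 upstream promoter, chr11:65264959-65265258, plus strand: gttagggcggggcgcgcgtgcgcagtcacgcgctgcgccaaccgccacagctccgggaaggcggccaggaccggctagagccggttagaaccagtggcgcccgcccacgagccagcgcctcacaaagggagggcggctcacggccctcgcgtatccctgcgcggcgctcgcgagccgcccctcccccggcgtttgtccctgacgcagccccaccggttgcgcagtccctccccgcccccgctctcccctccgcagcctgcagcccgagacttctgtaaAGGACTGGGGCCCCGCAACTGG
This promoter had a GC content of 73.7% with 37 CpG dinucleotides, where the first goat antibody peak just after it had 54.2% GC. The downstream promoter, chr11:65266266-65266565, had 46.0% GC and held no peak of any list. Searched on both strands, the downstream promoter contained the letters TATAAA, as did 11.5% of the 35116 RefSeq promoters of this length, and the upstream one contained GGGCGG, as did 45.0%. CCAAT, present in 34.6% of promoters, was in neither of the pair.

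The second goat antibody peak followed the most common start of the annotated MALAT1 transcripts. Of 66 transcripts, 33 started within 50 bp of chr11:65266516, and the peak chr11:65266603-65267197 began 87 bp after that position. The first ChIP-seq peak, chr11:65266580-65267012, began 64 bp after it, and its summit lay 72 bp from that of the goat antibody peak. The mouse antibody list had no peak there. The second ChIP-seq peak, chr11:65267854-65268086, lay where both CUT&RUN lists also had a peak, the weakest of the 7 in the goat antibody list (2.96) and the second of 4 in the mouse antibody list (5.42). The ChIP-seq peaks had fold enrichments of 3.73 and 4.52 and ranked 175 and 170 of 186, and the first had the lowest -log10 q-value of that list, 2.06. A ChIP-seq peak was thus found near the most common start of MALAT1 transcripts and none at the last peak of the gene.

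The last MALAT1 peak lay past the point where many annotated transcripts end. The most common transcript end was chr11:65273940, with 17 of 66 transcripts ending within 50 bp of it, and 1 transcript reached the annotated gene end. The last goat antibody peak began 294 bp after that common end and ran 270 bp past the gene end. The last mouse antibody peak, chr11:65274556-65275451, lay wholly under it, and the 2 summits were 36 bp apart. TALAM1 (chr11:65266783-65274903, minus strand), an antisense RNA gene, overlapped 6 of the 7 goat antibody peaks, 3 of the 4 mouse antibody peaks and both ChIP-seq peaks, and the first peak of each CUT&RUN list overlapped ENSG00000270117, also on the minus strand. Which of these genes the occupancy belongs to cannot be told apart.

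NEAT1 (ENSG00000245532, chr11:65190245-65213011, plus strand, 22.8 kb) was covered near its start. The goat antibody list had 4 peaks covering 14.1% of the gene and the mouse antibody list 3 covering 6.41%, and the ChIP-seq list had none, its nearest peak being 53.6 kb away. All of the covered bases fell in segments 1 to 3 of the 10 equal segments of the gene. In the goat antibody list the share covered in these was 39.6%, 85.5% and 15.7%, and in the mouse antibody list 18.6%, 42.2% and 3.25%. Coverage was thus highest in segment 2 in both lists. Merging peaks within 1 kb raised the covered share of the gene to 12.2% in the mouse antibody list, and a fold enrichment of at least 5 lowered it to 3.43%.

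Most of the bases under NEAT1 peaks lay within the short transcript, but the peaks did not match its limits. The first peak began 977 bp from the gene start in the goat and 1853 bp in the mouse antibody list. The last peak of each list lay wholly past the end of the transcript. The annotated short transcript spans chr11:65190245-65193928 (3684 bp), of which goat antibody peaks covered 60.9% and mouse antibody peaks 32.3%. Of the 19083 bp past its end, which belong to the long form, 5.03% and 1.41% were covered. The last covered base lay 1226 bp past the end of the short transcript in the goat antibody list and 943 bp past it in the mouse antibody list, with 17.9 and 18.1 kb of the gene still to follow. Enrichment past the threshold was thus called within and shortly past the short form and not over most of the long form. Nearness to the gene start and the extent of the short form cannot be told apart here.

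The 2 strongest NEAT1 peaks of the goat antibody list were chr11:65191222-65191868, with a fold enrichment of 6.21 (rank 980 of 8720), and chr11:65192586-65194458, with 6.04. The first began 977 bp from the gene start, so that it reached the 1 kb counted as the 5′ end, and the mouse antibody list had no peak at its place. The other 2, chr11:65192106-65192360 and chr11:65194725-65195154, had 4.38 and 4.32, close to the median of the list. Mouse antibody peaks were chr11:65192098-65192877 with 6.26, which ranked 123 of 2338, chr11:65193458-65193866 with 4.13 and chr11:65194602-65194871 with 4.92. NEAT1 thus held the highest peak of the 9 in the mouse antibody list, whereas MALAT1 held the highest of the 16 in the goat antibody list. The bases under peaks of both lists were 34.4% of those under goat antibody peaks and 75.6% of those under mouse antibody peaks. Between NEAT1 and MALAT1, which are 52.1 kb apart and read in the same direction, 1 further goat antibody peak was found, chr11:65243962-65244322 with 5.64, and no peak of the other lists.

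**Figure D2:**
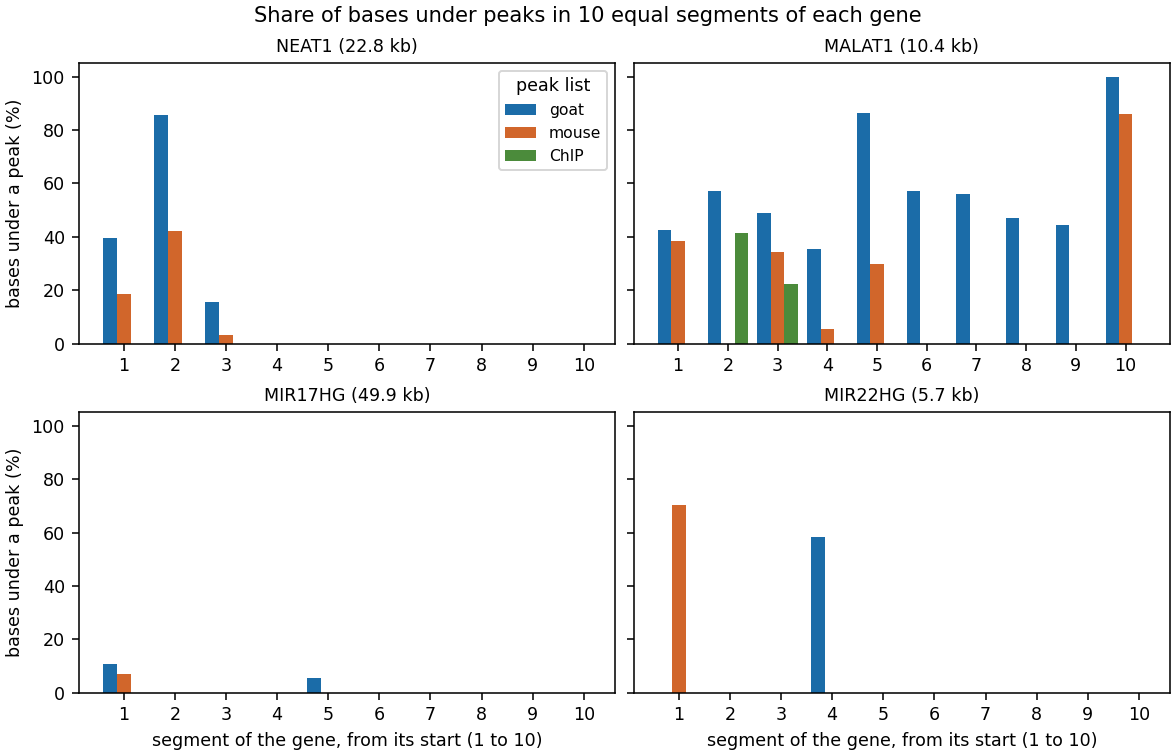
Share of bases under peaks, in percent, in 10 equal segments of NEAT1, MALAT1, MIR17HG and MIR22HG counted from the gene start, with 1 bar color for each peak list. Goat antibody coverage ran through all 10 segments of MALAT1 and was complete in segment 10, while NEAT1 coverage stopped after segment 3.

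MIR17HG (ENSG00000215417, chr13:91999940-92049846, plus strand, 49.9 kb) had 3 goat antibody peaks and 1 mouse antibody peak that together covered little of the gene, 1.62% and 0.703%. The peaks lay beside the miRNA cluster and not over it. The 6 hairpins of the miR-17-92 cluster, located by an exact match of the RefSeq sequences, span chr13:92002859-92003645. The first goat antibody peak, chr13:92001378-92001587 with a fold enrichment of 4.87, ended 1272 bp before the cluster, and the second, chr13:92003843-92004162 with 4.65, began 198 bp after it. The mouse antibody peak, chr13:92001402-92001752, ended 1107 bp before the cluster. The hairpins themselves held no peak.

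The main mature miRNAs of the cluster, and that of MIR22HG, are given to show what the hosts encode, in RefSeq sequence with the seed (bases 2 to 8) in capitals.
miR-17-5p: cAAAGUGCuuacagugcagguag
miR-20a-5p: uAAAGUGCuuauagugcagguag
miR-18a-5p: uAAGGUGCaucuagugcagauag
miR-19a-3p: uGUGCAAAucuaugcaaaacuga
miR-19b-3p: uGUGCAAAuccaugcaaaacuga
miR-92a-3p: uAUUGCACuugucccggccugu
miR-22-3p: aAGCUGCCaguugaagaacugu
miR-17-5p and miR-20a-5p share 1 seed, and miR-19a-3p and miR-19b-3p share another, while miR-18a-5p, miR-92a-3p and miR-22-3p have seeds of their own.

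The first MIR17HG peak was the closest match between the CUT&RUN lists at any of the genes, with summits 2 bp apart. It was nevertheless a weak peak in the mouse antibody list, with a fold enrichment of 3.48 and a -log10 q-value of 1.31, near the threshold of 1.30 at which that list starts. With a q-value under 0.01 it was no longer in the list. The other goat antibody peak, chr13:92021457-92021734 with 4.35, lay in an intron 17812 bp past the cluster. A MIR17HG transcript that spans the cluster, chr13:92000074-92007322, was covered to 7.31% in the goat antibody list, and the 42524 bp of the gene past its end to 0.654%. Occupancy past the threshold was thus sparse throughout this gene and denser in its first part. The RefSeq promoter of MIR17HG, with 73.0% GC, held no peak of any list.

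MIR22HG (ENSG00000186594, chr17:1614741-1620468, minus strand, 5.73 kb) had peaks of modest height at its 5′ side. The goat antibody list had chr17:1620633-1620849 with a fold enrichment of 3.89, which lay 165 to 381 bp upstream of the gene start, and chr17:1618202-1618536 with 3.75 in an intron, 935 bp from miR-22-5p. The mouse antibody list had chr17:1620067-1620795 with 4.33, which covered 327 bp upstream of the gene start and 402 bp after it. The bases under both lists are shown on the minus strand, with 11 bp centered on the goat antibody summit in capitals.
MIR22HG overlap of goat and mouse, chr17:1620633-1620795, minus strand: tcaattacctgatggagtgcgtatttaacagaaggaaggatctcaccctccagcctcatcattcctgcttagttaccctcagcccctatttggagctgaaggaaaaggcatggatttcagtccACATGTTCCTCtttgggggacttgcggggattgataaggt
The gene start is that of 1 long transcript, whereas 30 of 32 transcripts start within 100 bp of chr17:1619505, and the goat and mouse antibody peaks began 1128 and 562 bp upstream of that position. No peak of any list touched the RefSeq promoter there, which had 72.3% GC. Both peaks also lay inside WDR81, a protein-coding gene on the other strand whose start is 651 bp from that of MIR22HG, so their gene cannot be told apart.

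KCNQ1OT1 (chr11:2618538-2721233, minus strand), TUG1 (chr22:31365231-31375381, plus strand) and OIP5-AS1 (chr15:41576156-41614590, plus strand) had no peak in any list. At KCNQ1OT1 the nearest goat antibody peak was 62.9 kb away within KCNQ1, with a fold enrichment of 2.74. At OIP5-AS1 the nearest lay 79.8 kb away at NDUFAF1, with 3.29, and at TUG1 186 kb away at OSBP2, with 3.48. These peaks were below the list median of 4.32. The nearest mouse antibody peaks were 1205, 152 and 682 kb from KCNQ1OT1, OIP5-AS1 and TUG1, and the nearest ChIP-seq peaks were 11821, 167 and 4278 kb away. MORC2, which starts 471 bp from TUG1 on the other strand, had no peak within 1 kb of its start either, and the RefSeq promoters of TUG1 and OIP5-AS1 held none. TUG1 (10.2 kb) is about as long as MALAT1 (10.4 kb).

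**Figure D3:**
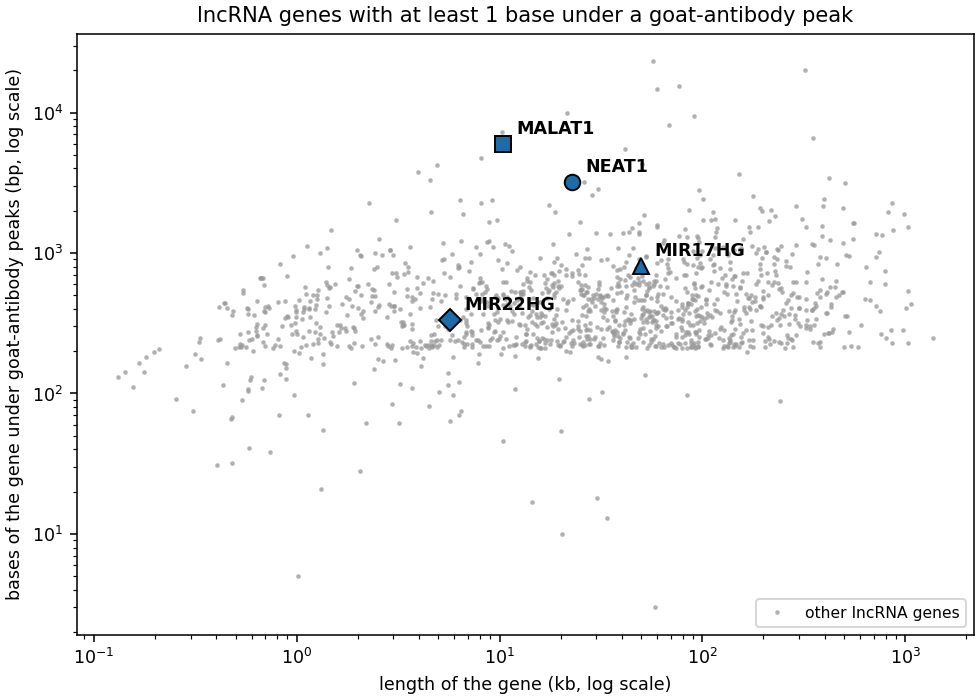
Gene length in kb against the bases of the gene under goat antibody peaks, both on log scales, for lncRNA genes with at least 1 such base. MALAT1, with 5993 bp, and NEAT1, with 3205 bp, lay toward the upper edge of genes of their length, while MIR17HG (808 bp) and MIR22HG (335 bp) lay among the other genes.

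In covered bases, 9 other lncRNA genes had more than the 5993 bp of MALAT1 in the goat antibody list, and 18 had more than the 3205 bp of NEAT1. In contrast, 203 had more than MIR17HG and 765 had more than MIR22HG. MALAT1 and NEAT1 thus stood higher in this order than the miRNA hosts. In the mouse antibody list 4 other lncRNA genes had more covered bases than MALAT1 and 7 had more than NEAT1, against 167 for MIR17HG and 123 for MIR22HG, so the miRNA hosts again came lower.

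The lists overlapped more often at these genes than over all of their peaks, by at least 1 bp. Of the 16 goat antibody peaks at the genes, 9 (56.2%) overlapped a mouse antibody peak, where 8.33% of all goat antibody peaks did. All 9 mouse antibody peaks overlapped a goat antibody peak, where 32.4% of that list did. When the fold enrichment had to reach 5, 2 of 6 goat antibody peaks and 2 of 3 mouse antibody peaks were shared. The share over all peaks was not computed under that limit, so whether the difference remains there is unknown. The lists are of unequal size, and the peaks of 1 gene are not independent of each other. With ChIP-seq, 2 of the 16 goat antibody peaks overlapped against 0.837% of all, and 1 of the 9 mouse antibody peaks against 1.88%. In the other direction, both ChIP-seq peaks overlapped the goat antibody list (41.4% of all ChIP-seq peaks did) and 1 of them the mouse antibody list (23.1%). The peaks not shared with either other list were the first of NEAT1, peaks 5 and 6 of MALAT1, peaks 2 and 3 of MIR17HG and the intronic one of MIR22HG.

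At MALAT1, 96.0% of the bases under mouse antibody peaks were also under goat antibody peaks, and at NEAT1 75.6%, at MIR17HG 53.0% and at MIR22HG 22.4%. Read the other way, 31.0%, 34.4%, 23.0% and 29.5% of the bases under goat antibody peaks were also under mouse antibody peaks. Agreement on the bases was thus nearly complete in the mouse antibody list at MALAT1 and partial at MIR22HG, where the shared bases were 163 of 729. Goat antibody peaks covered 57.4% of MALAT1 and 5.85% of MIR22HG, so more overlap could arise from coverage alone at MALAT1. How much did was not tested.

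**Figure D4:**
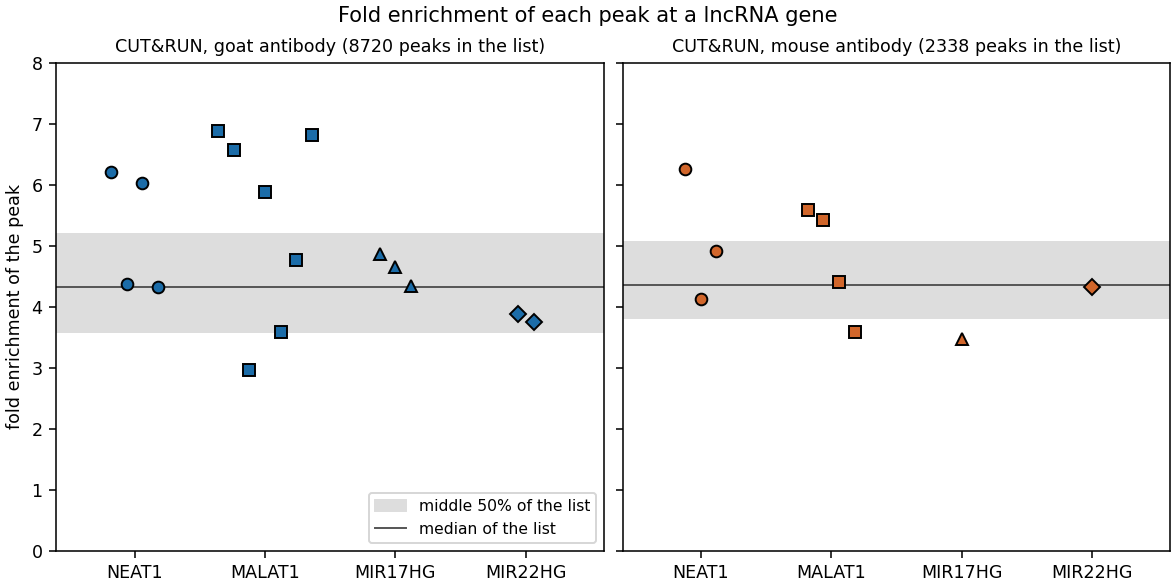
Fold enrichment of each peak at NEAT1, MALAT1, MIR17HG and MIR22HG in the goat (left) and mouse (right) antibody lists, with the median of all peaks of the list as a line and the middle 50% as a gray band. MALAT1 peaks of the goat antibody list ran from 2.96 to 6.89, across and beyond the band of 3.59 to 5.20, and MIR17HG and MIR22HG peaks of that list lay within it.

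The CUT&RUN peaks at the genes lay within the full range of GC content of their lists. That range is wide, 22.8% to 75.7% in the goat and 23.1% to 78.9% in the mouse antibody list. Goat antibody peaks had a median of 43.8% at MALAT1 and 48.5% at NEAT1, beside 44.5% over the list with a middle range of 39.1% to 51.6%. The 2 goat antibody peaks of MIR22HG had a median of 53.4%, above that middle range. The 3 of MIR17HG ran from 29.7% to 53.8%, beyond it on both sides. Mouse antibody peaks ran from 36.5% to 54.0% at MALAT1 and from 38.4% to 53.3% at NEAT1, beside a median of 46.0% over the list. The ChIP-seq peaks of MALAT1, with 29.6% and 49.8%, were on the low side of a list whose median was 57.3%, and the first had the lowest GC content of that list. The low GC of that peak thus went with the lowest -log10 q-value of the list, and its part in the call was not tested.

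Likeness of pattern was measured as the Euclidean distance over 9 shares, those of the 5′ end zone, the middle and the 3′ end zone covered in each list, among 1431 other lncRNA genes of 3 kb or more with a peak. Nearest to NEAT1 were ENSG00000273433 (distance 0.0434) and ENSG00000285338 (0.0453), and both were covered in the middle by both CUT&RUN lists and at neither end. The distances were larger for MALAT1, with HOXB-AS2 (0.543) and SNHG12 (0.566) as the nearest. MIR17HG, with small shares throughout, had near neighbors in ENSG00000287072 (0.000531) and CASC11 (0.00271). The nearest to MIR22HG were ENSG00000260874 (0.146) and ENSG00000255139 (0.152).

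Genes for proteins of the paraspeckles and speckles in which NEAT1 and MALAT1 RNA reside were also looked up. Those described here had peaks in the goat antibody list or in no list. SFPQ, a core paraspeckle protein, had 8 peaks with a highest fold enrichment of 9.82, and HNRNPK had 6 with 7.01. TARDBP, SRRM2, SON and RBM14 had 1 peak each with 4.66, 4.47, 4.15 and 3.04, and NONO and PSPC1 had none. The lncRNA genes NEAT1 and MALAT1, in contrast, had peaks with both antibodies. The protein genes were named after their values were seen. No share over protein-coding genes was computed beside them, so whether their peaks are unusual is unknown. That they were absent from the shorter mouse antibody list does not show that the antibodies differ there.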

How the data were processed

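Elongin A peaks were taken as deposited, in 3 lists from 7 samples and controls. The authors mapped read pairs with Bowtie2 (hg19), discarded duplicates and ran MACS2 with its default settings. Per peak, the deposited lists give the fold enrichment, a ratio to the local background of the control, and the -log10 q-value of the caller. For CUT&RUN the methods name goat IgG as the control, and the control of the mouse antibody list is not given in the sources used here, nor is the pooling of the goat antibody replicates.

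Positions were converted to count from 1 and compared with GENCODE release 44 on GRCh37 in Python 3.11.15 (numpy 2.4.6, matplotlib 3.10.9). Covered shares are bases under the union of peaks. Background shares use lncRNA genes of 5 kb or more. Promoter (6 entries for 5 of the 7 genes) and miRNA sequences are from RefSeq (GRCh38.p14) and were placed on GRCh37 by exact match. No test was run, since no list separates replicates. The text names the 7 genes, transcripts and small RNAs within them, coding genes starting within 10 kb on the other strand, listed genes with a peak in 2 lists or more, and the 2 lncRNA genes most alike in pattern. GAS5, the nuclear body protein genes and the genes at the nearest peaks fall outside this rule and were named after their values were seen. Members and lists were chosen with earlier results of these data known. All 200 of 200 simulated peaks of each kind were placed correctly. No column of per-sample values was left unmatched. Of the list of nuclear body protein genes, 1 is not reported here.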

Additional observations from a re-analysis of the deposited data

How the results depend on the processing

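No paired analysis was possible because the lists hold no column per replicate, and for the same reason no replicate could be left out. The limits are those of peak lists: depth is unknown, a gene without a peak is not one without signal, and the extent of covered bases depends on the threshold. The alternatives gave 119 values for the counts, shared peaks and the covered shares of NEAT1 and MALAT1 in the CUT&RUN lists. Of these, 82 stayed within 1.5 times the reported count or within the Wilson 95% interval of the share over bases, and 37 did not. Some of the 82 could not have moved, since a ChIP-seq count of 0 stays 0 under a stricter limit. The shares of NEAT1 and MALAT1 over annotated exons equaled those over the gene. The interval treats bases as independent, which the bases of 1 peak are not. The number that stayed is therefore no measure of robustness. No share over all lncRNA genes or over all peaks was computed under the alternatives, so their counts have no background beside them. The alternatives use fewer, wider or differently placed intervals, and the cause of the 37 moves was not tested. With a fold enrichment of at least 5, the genes with a peak numbered 2 in each CUT&RUN list and 0 in the ChIP-seq list, those with a mouse antibody peak at the 5′ end 1 and at the 3′ end 0, peaks shared between the CUT&RUN lists 2 of 6 goat and 2 of 3 mouse antibody peaks, and those shared with ChIP-seq 0 in each direction. With a q-value under 0.001, the mouse antibody list had 0 genes with a 3′ end peak and shared 5 peaks with the goat antibody list, and goat antibody and ChIP-seq peaks shared 0. Merging peaks within 1 kb left 5 goat antibody regions shared with the mouse antibody list and 1 shared with ChIP-seq, and 1 ChIP-seq region shared with the goat antibody list. An overlap of 50% of the smaller peak left 0 shared between mouse antibody and ChIP-seq. The promoter window left 1 gene with a 5′ end peak in each CUT&RUN list. Taking the start of any transcript gave 4 genes with a 5′ end peak in the mouse antibody list and 1 in the ChIP-seq list, and the end of any transcript gave 3, 2 and 1 genes with a 3′ end peak in the goat, mouse and ChIP-seq lists. The share of NEAT1 covered became 11.1% at a fold enrichment of at least 5 and 17.3% after merging in the goat antibody list, and 4.61% at a q-value under 0.001, 3.43% at that fold enrichment and 12.2% after merging in the mouse antibody list. That of MALAT1 became 52.6%, 34.7% and 89.1% in the goat antibody list under the same 3 changes, and 10.8% and 7.29% in the mouse antibody list under the stricter q-value and fold enrichment.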

Other observations

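The list of 30 other lncRNA genes, of which 29 were located, is described here by counts. A goat antibody peak was present at 10 of the 29, a mouse antibody peak at 5 and a ChIP-seq peak at 1, and 18 had no peak. Of the lncRNA genes of 5 kb or more, 11.1%, 4.14% and 0.276% had a peak in these lists. A share above that background in the CUT&RUN lists was thus not particular to the 7 genes. The 29 were chosen by name and without a length limit. Peaks in 2 or more lists were found at LINC-PINT, MIR100HG, MIRLET7BHG and MIR99AHG. MIR100HG and MIR99AHG had 1 peak in each CUT&RUN list. LINC-PINT (319 kb) had 32 goat and 7 mouse antibody peaks, with highest fold enrichments of 8.12 and 4.91, which covered 6.33% and 0.647% of it.

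MIRLET7BHG (chr22:46449749-46509808, 60.1 kb), the host of let-7a-3 and let-7b, had 20 goat antibody peaks, 3 mouse antibody peaks and 10 ChIP-seq peaks. Those 10 were 5.38% of the ChIP-seq list at a single gene. Their fold enrichment ran from 4.35 to 9.08, below the list median of 9.99, and 9 of them overlapped a peak of another list. Goat antibody peaks covered 24.7% of the gene, with fold enrichments from 2.96 to 10.7, and ChIP-seq peaks covered 10.6%. Beside it, the 2 ChIP-seq peaks of MALAT1 covered 6.38% of that gene. The ChIP-seq peaks of MIRLET7BHG had a median GC content of 64.3% and those of MALAT1 39.7%.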
